A study of Mus musculus with 183 samples.

Results

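Small nucleolar RNAs (snoRNAs) were examined in the actinomycin D half-life experiment, as the genes whose symbol starts with Snora or Snord and whose raw counts summed to at least 500 over its 47 libraries. This rule was met by 40 of the 53380 genes in the count table, 13 of the box H/ACA class (Snora) and 27 of the box C/D class (Snord). The table lists 141 genes with such symbols, of which 42 are Snora and 99 are Snord. No reads were counted in any library for 19 of the Snora and 54 of the Snord genes. By counting error only, 0 counts over all libraries allow a level of up to 0.00225 CPM (reads per 1000000 gene counts), or 3 counts of the total. This limit holds for uniquely mapped, counted reads. RNAs whose reads were not counted may be present at higher levels. At the limit of the rule, Snord42b was taken in with 500 counts and Snord11 was left out with 499.

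SnoRNAs are stable noncoding RNAs of the nucleolus that guide the chemical modification of ribosomal RNA by base pairing. Box C/D snoRNAs carry a C box and a D box, are bound by fibrillarin (Fbl), Nop56, Nop58 and Snu13, and direct 2′-O-methylation. Box H/ACA snoRNAs fold into a pair of hairpins with an ACA motif near the 3′ end, are bound by dyskerin (Dkc1), Nhp2, Nop10 and Gar1, and direct pseudouridylation. A few members of either class are needed for cleavage of the ribosomal RNA precursor rather than for its modification. Most mammalian snoRNAs are cut out of the introns of host genes after splicing, and the bound core proteins protect the mature RNA from exonucleases.

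The libraries come from 2 mouse embryonic stem cell (mESC) clones that carry Cre-ERT2 at Rosa26, a recombinase activated by 4-hydroxytamoxifen (4OHT). Clone 5F is Skiv2l fl/fl and untagged, so that 4OHT is meant to delete the cytoplasmic helicase Skiv2l, a cofactor of the RNA exosome. Clone 7E is Aven-/- and lacks AVEN, which the paper describes as a SKIV2L interactor. It also carries the BirA ligase at Rosa26 and 3xFLAG-Avi-tagged Skiv2l. The study's methods describe it as Skiv2l fl/fl too, a conditional Skiv2l knockout like clone 5F, and its title names Ski2 beside Aven, while its genotype label gives no fl/fl. Cells were taken at day 0 or day 4 of 0.1 µM 4OHT and then kept for 120, 240 or 360 min in actinomycin D, which stops transcription, or with DMSO alone (mock, the 0 min samples). Each of the 16 groups has 3 libraries, except clone 5F at day 0 and 120 min with 2, and the replicates are technical by the study's methods, so p-values cover the spread between these samples and not that between cultures or clones. As each genotype is 1 clone, the clone, Aven, the tag and BirA cannot be told apart. The same holds for the Skiv2l mRNA level, which was lower in clone 7E at day 0 already.

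Depth and labels were examined first. Gene counts per library were between 24440935 and 34114250, and the 40 snoRNAs took 0.073% of them in all. The mESC marker Pou5f1 was high in each mock group (709 to 981 CPM), the summed fibroblast markers were low (2.18 to 7.82 CPM, Postn at 0 in the mock libraries of 2 groups), and the summed primitive endoderm markers were 103 and 80.4 CPM in clone 5F against 12.6 and 15.8 CPM in clone 7E (5 of 5 markers lower in clone 7E at day 0). Their part in the clone comparisons was not tested. Skiv2l was at 148 ± 0.290 CPM (SD, n = 3) at day 0 and 143 ± 10.4 CPM at day 4 in clone 5F mock cells, and at 33.6 ± 2.46 and 13.1 ± 0.703 CPM in clone 7E. Thus Skiv2l did not fall in the clone 5F libraries labelled day 4 (log2 change -0.01), although a gene-level count over all exons does not check the deleted exons, and it fell in clone 7E (log2 change -1.32). Aven was at 35.6 and 33.7 CPM in clone 5F and at 2.32 and 1.62 CPM in clone 7E.

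A set of 12 libraries stood apart. They are the libraries whose title number is divisible by 4, 1 in each actinomycin D group and none among the mock samples, and the labels do not name them as a batch. Mitochondrial ribosomal RNA took 0.234% to 0.737% of their counts, against 1.34% to 3.60% in the other 23 actinomycin D libraries, and they had the lowest ratio of mRNA to ERCC spike-in counts in 12 of 12 groups. SnoRNAs were higher in them, with the highest summed CPM of the group in 10 of 12 groups and a median log2 difference of 0.18 over the 40 members (32 of 40 above 0). The difference was similar in H/ACA (median 0.22) and C/D members (0.18) and ranged from -0.42 for Snord72 to 0.61 for Snord53. Decay results are therefore also given without these 12 libraries. The mock comparisons do not use them.

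**Figure D1:**
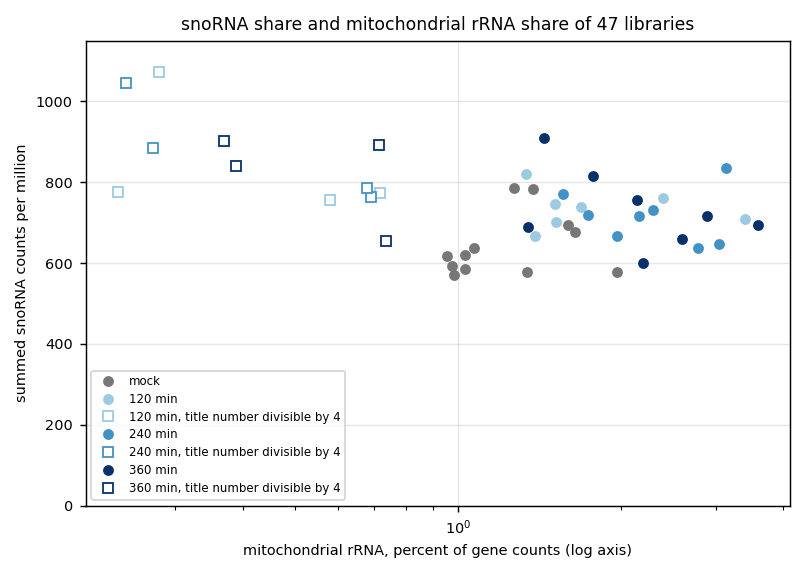
Each symbol is a library, coloured by time in actinomycin D, with its percent of gene counts in mitochondrial ribosomal RNA on a log horizontal axis and the summed snoRNA CPM on the vertical axis. Open squares are the libraries with a title number divisible by 4. These 12 libraries lie at 0.234% to 0.737%, to the left of all others, and the summed snoRNA level spans 569.7 to 1073 CPM over the 47 libraries.

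The sequences of 10 members are given because the results on level and on the share left after actinomycin D turn on them. They include the H/ACA RNA and the C/D RNA with the highest levels (Snora73b, chr4:132352322-132352526, minus strand, and Snord17, chr2:144265979-144266216, minus strand). Also given are the member with most left after 360 min of actinomycin D in clone 5F at day 0 (Snora78, chr17:24719676-24719803, minus strand) and the member with least left there (Snora41, chr1:63179004-63179135, plus strand). The others are members that share a host gene and differ in the share left. From introns of Rpl13a these are Snord34 (chr7:45126601-45126670, minus strand), Snord32a (chr7:45127382-45127464, minus strand) and Snord35a (chr7:45126346-45126435, minus strand), and from 2410006H16Rik they are Snord49a (chr11:62603450-62603521, plus strand), Snord49b (chr11:62603079-62603150, plus strand) and Snord65 (chr11:62604515-62604586, plus strand). Sequences were read 5′ to 3′ as DNA from the GRCm38 reference at Gencode M21 coordinates. Capitals mark an ACA within the last 8 nt of an H/ACA gene, a C box written as TGATGA within the first 20 nt of a C/D gene, and a D box written as CTGA within its last 15 nt, all on the gene's strand.
Snora73b: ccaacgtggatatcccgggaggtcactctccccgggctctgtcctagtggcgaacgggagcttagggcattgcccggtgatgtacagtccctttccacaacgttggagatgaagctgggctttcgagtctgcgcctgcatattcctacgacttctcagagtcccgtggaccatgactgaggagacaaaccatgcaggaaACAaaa
Snora78: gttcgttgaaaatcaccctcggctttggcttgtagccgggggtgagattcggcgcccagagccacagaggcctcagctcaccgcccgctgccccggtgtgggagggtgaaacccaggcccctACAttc
Snora41: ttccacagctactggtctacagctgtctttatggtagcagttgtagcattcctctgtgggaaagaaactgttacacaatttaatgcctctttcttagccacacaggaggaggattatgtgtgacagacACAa
Snord17: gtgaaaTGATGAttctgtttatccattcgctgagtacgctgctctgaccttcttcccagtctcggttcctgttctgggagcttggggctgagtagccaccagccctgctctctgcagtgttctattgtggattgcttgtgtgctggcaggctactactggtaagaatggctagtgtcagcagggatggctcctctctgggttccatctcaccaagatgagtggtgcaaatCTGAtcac
Snord34: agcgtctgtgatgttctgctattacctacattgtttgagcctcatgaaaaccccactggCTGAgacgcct
Snord32a: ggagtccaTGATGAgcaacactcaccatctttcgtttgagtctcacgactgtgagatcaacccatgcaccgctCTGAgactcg
Snord35a: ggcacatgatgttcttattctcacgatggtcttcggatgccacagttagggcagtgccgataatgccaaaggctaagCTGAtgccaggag
Snord49a: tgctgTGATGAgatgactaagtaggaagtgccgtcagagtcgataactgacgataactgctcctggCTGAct
Snord49b: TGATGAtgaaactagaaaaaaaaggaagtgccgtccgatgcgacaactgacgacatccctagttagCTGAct
Snord65: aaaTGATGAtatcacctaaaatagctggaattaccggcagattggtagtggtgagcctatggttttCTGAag

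The ACA was found in 13 of 13 H/ACA members (95.2% of all 42 Snora genes), the C box in 16 of 27 and the D box in 24 of 27 C/D members (70.7% and 92.9% of all 99 Snord genes). Snord34 and Snord35a held no TGATGA in the window, and a missing match says only that these letters are not there. Snord43 and Snord70 held neither box. Snord43 is typed as a microRNA gene in the annotation and was taken as C/D by its symbol only. Snord49a and Snord49b are both 72 nt long and share the base at 46 positions, whereas Snord49a and Snord65, also 72 nt long, share it at 18. Snora73a and Snora73b are near copies, with 198 of the 205 bases of Snora73b in common order, so their reads are told apart only where they differ. The H/ACA members were 128 to 205 nt long (median 137) and the C/D members 65 to 238 nt (median 79), and only 3 C/D members, Snord17, Snord15a and Snord118, reached 120 nt.

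A host gene on the same strand was annotated for 35 members, which lie in 27 hosts. Ribosomal protein genes were the largest group of hosts, with 15 members in 10 genes, and 9 members lie in noncoding hosts such as Snhg3 and Snhg6. The 5 members without a host were Snora17, Snora57, Snord13, Snord104 and Snord118. An exon of another gene is overlapped by 6 members, where reads may be shared or dropped (Snora73a, Snora73b, Snora2b, Snord4a, Snord42a and Snord42b). The labels name a TruSeq v2 kit, which does not mark strand, and reads were counted per gene, so reads of unspliced host introns cannot be told apart from those of the snoRNA. Of an imprinted snoRNA cluster known for its expression in brain, Snord116l1, Snord116l2, Snord64 and Snord107 are in the table, and each was at 0 counts in all 47 libraries. Snord14a, Snord14c, Snord14d, Snord14e and Snord22, outside this cluster, were at 0 counts too. Thus 0 counts alone do not show that an RNA was absent.

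SnoRNA counts were dominated by 3 genes. Snora73b (also called U17 or E1, which acts in ribosomal RNA cleavage) took 44.2% of the members' summed counts, Snord17 23.8% and Snora78 10.2%. As a class, H/ACA members took 63.2% and C/D members 36.8%. Per kilobase of annotated length and averaged over the 12 mock libraries, Snora73b stood at 1266 CPM per kb, followed among H/ACA members by Snora78 (426.8), Snora57 (136.2), Snora17 (113.0) and Snora21 (55.4). Among C/D members, Snord17 stood at 605.5 CPM per kb, followed by Snord34 (218.8), Snord32a (211.8), Snord104 (122.0) and Snord49a (85.1). Snord34 and Snord32a, methylation guides from introns of Rpl13a, were thus nearly equal, while Snord35a from the same host was lower. The median was 48.1 CPM per kb for H/ACA and 23.4 for C/D members, the lowest were Snora30 (5.56) and Snord89 (3.78), and the highest level was 334.8 times the lowest. Classes differ in length, and how well RNAs of different length were recovered was not measured.

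**Figure D2:**
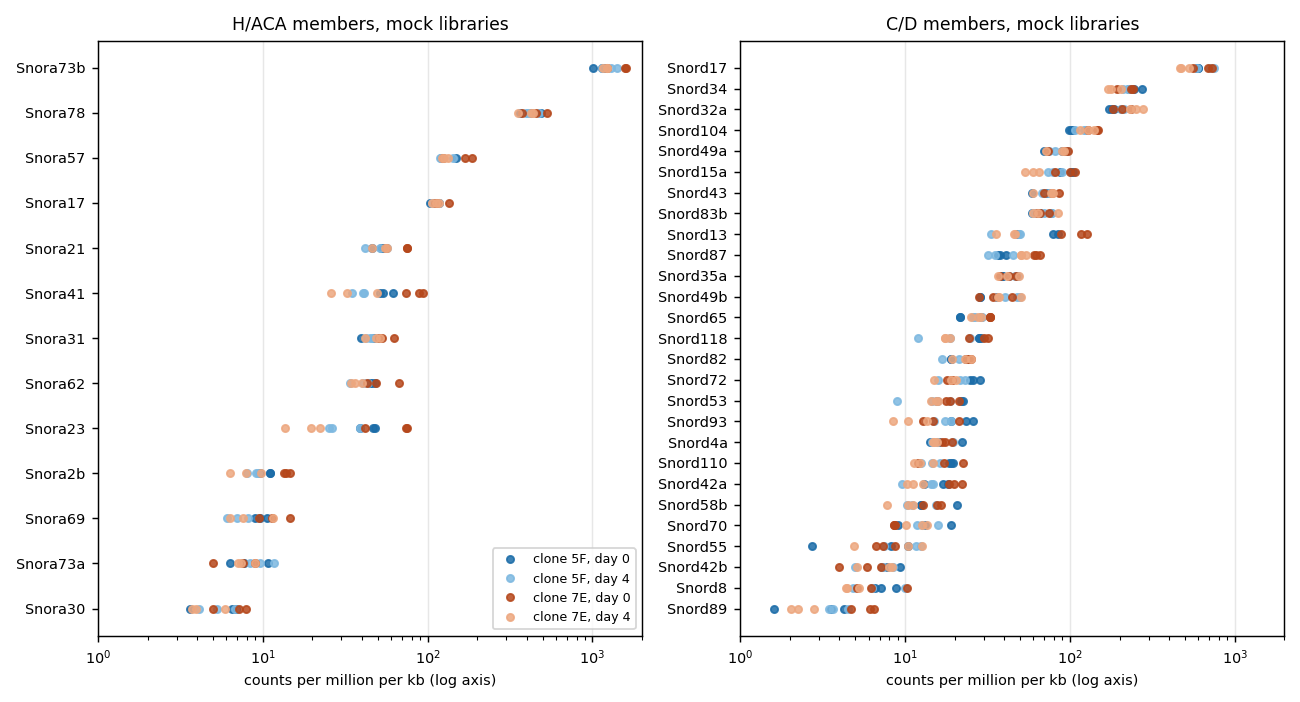
Level of each of the 40 snoRNAs in the 12 mock libraries, in CPM per kb on a log axis, with a point for each library coloured by clone and day and members ordered by their mean within each class. Snora73b (mean 1266) and Snord17 (mean 605.5) lie highest in the H/ACA and C/D class, and Snora30 (5.56) and Snord89 (3.78) lowest.

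To ask how stable the snoRNAs were after transcription was stopped, counts were scaled so that the fall of total mRNA against the ERCC spike-ins was kept. The fall measured is that of reads over each gene, and reads of unspliced host introns may be among them. Slopes and half-lives therefore need not be those of the mature RNA. The spike-in factor was 0.657, 0.538 and 0.441 at 120, 240 and 360 min, relative to 1 in mock, and values so scaled are called normalized counts. With this scaling all 40 snoRNAs had a negative slope in each of the 4 clone and day groups. In clone 5F at day 0, 39 of 40 fell (quasi-likelihood test of edgeR, Benjamini-Hochberg adjusted p under 0.05 over all genes tested), where 88.1% of all genes tested fell. The exception was Snord89, with 6 to 13 reads in a mock library and a slope of -0.05 ± 0.09 log2 per h (SE). In clone 5F at day 4, clone 7E at day 0 and clone 7E at day 4, 40 of 40 fell, against 88.5%, 90.5% and 92.2% of all genes. Most RNAs fall in such an experiment, so these shares say little about snoRNAs. Without the 12 libraries that stand apart, 38, 40, 40 and 39 fell.

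The slopes were steeper than those of the median gene for most snoRNAs. The median slope of the 40 was -0.33, -0.32, -0.37 and -0.33 log2 per h in clone 5F at day 0 and day 4 and in clone 7E at day 0 and day 4, beside -0.23, -0.23, -0.23 and -0.22 for all genes tested. The slope was steeper than the median of all genes for 27, 32, 33 and 32 of the 40. These values depend on the spike-in factor: with TMM scaling and no spike-in factor, which measures change relative to the average gene, 20, 18, 22 and 20 members fell and 5, 2, 2 and 6 rose. Of all genes tested on that scale, 32.5%, 31.1%, 31.0% and 27.4% fell and 31.2%, 29.6%, 31.0% and 26.4% rose. Snora78 and Snord34 rose in all 4 groups on that scale, Snora57, Snora73b, Snord15a and Snord17 rose in at least 1, and 14 members, among them Snora41, Snord35a, Snord49a, Snord72 and Snord82, fell in all 4. The shares of all genes that rose or fell in all 4 groups are not given here, so these counts have no background. Between groups, the order of the slopes over the 40 members was alike (Spearman's rho 0.887 to 0.951, a description over members that share libraries within each group).

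The members with most left at 360 min in clone 5F at day 0 were the 3 with the highest counts. In clone 5F at day 0, Snora78 (a pseudouridylation guide from Snhg9) measured 1544, 1768 and 1339.9 normalized counts in mock and 1318, 1158 and 1198 at 360 min. These values leave 79.0% ± 5.39 (SD, n = 3) of the mock mean, with no overlap between the times. Snord17, from an intron of Snx5, retained 76.3% ± 5.47 and Snora73b 74.8% ± 5.33 in that group. Less was left of these RNAs in other groups, with 43.6%, 44.3% and 64.2% for Snord17 and 48.9%, 45.7% and 60.9% for Snora73b at 360 min in clone 5F at day 4, clone 7E at day 0 and clone 7E at day 4. Snora78 kept 76.1%, 60.1% and 60.2% there. Without the libraries that stand apart, these values in clone 5F at day 0 were 79.8% for Snora78, 73.3% for Snord17 and 74.5% for Snora73b. Over the 40 members, the slope in clone 5F at day 0 had a Spearman's rho of 0.517 with the summed count and 0.327 with length (0.495 to 0.539 and 0.236 to 0.327 over the groups, descriptions only).

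The steepest slope in 3 of 4 groups was that of Snora41, a pseudouridylation guide in an intron of the translation elongation factor gene Eef1b2. It measured 192, 199 and 233 normalized counts in the clone 5F day 0 mock libraries and 6.72, 9.46 and 2.72 at 360 min. Every value at 360 min thus lay far below every mock value, and 3.03% ± 1.63 of the mock mean remained. In the other 3 groups 1.95%, 1.96% and 3.04% remained. Its slope was -0.90 ± 0.08, -0.98 ± 0.08, -0.97 ± 0.08 and -0.92 ± 0.09 log2 per h. For the reads counted, this corresponds to a half-life of 1.11 h in clone 5F at day 0. In clone 7E at day 4 the slope of Snord82 was steeper (-1.06 ± 0.13). The next to Snora41 in the percent left were C/D RNAs: Snord72 (in Rpl37) kept 3.86% ± 2.05, Snord65 6.46% ± 5.14, Snord87 (in Snhg6) 6.78% ± 0.240 and Snord82 (in nucleolin, Ncl) 7.22% ± 1.64 at 360 min in clone 5F at day 0. Of the H/ACA members, Snora69 (12.2% ± 1.64) and Snora31 (14.3% ± 2.97) came next after Snora41.

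The shape of the fall differed between members. Snora17, which has no annotated host, was little changed after 120 min and then dropped: in clone 5F at day 0 it measured 441, 400.2 and 391 normalized counts in mock, 397.5 and 370 at 120 min, and 131, 127 and 148 at 360 min. This left 93.4% at 120 min and 33.0% at 360 min, and the other 3 groups were alike, with 90.3%, 92.4% and 84.5% and then 32.9%, 30.6% and 37.2%. Without the libraries that stand apart, Snora17 was at 90.0%, 85.7%, 87.6% and 78.8% at 120 min. Snord82 instead had 9.17% ± 7.69 left at 120 min already (n = 2) and 7.22% at 360 min. Snora23 was at 142% ± 110 at 120 min in clone 5F at day 0, where 1 of the 2 libraries, which stands apart, had 510 normalized counts and the other 149. That value therefore rests on 1 library, and Snora23 was at 64.4% in the other one.

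The members that act in ribosomal RNA cleavage did not move as a group. Of the other such genes looked up, Snord14a, Snord14c, Snord14d, Snord14e and Snord22 were at 0 counts. Snord3a and Snord3b-ps1 were not among the genes counted, so nothing is said of these RNAs. Besides Snora73b, Snord13 (U13, which acts in maturation of the small-subunit RNA) kept 55.9% ± 16.1 in clone 5F at day 0, whereas Snord118 (U8, needed for maturation of the large-subunit RNAs) kept 15.8% ± 1.43 and Snora73a 21.2% ± 4.32. Both Snord13 and Snord118 are without an annotated host. Single libraries at 360 min lay between 45.9% and 74.5% for Snord13 and between 14.6% and 17.4% for Snord118, so the 2 did not overlap.

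The H/ACA class was left at a higher level than the C/D class in 3 of 4 groups. At 360 min in clone 5F at day 0, the median over members of the percent left was 30.9% for H/ACA (30.1%, 34.9% and 30.8% in single libraries) and 21.0% for C/D RNAs (17.7%, 20.1% and 20.1%). In clone 5F at day 4 the medians were 26.4% and 22.0%, and in clone 7E at day 0 they were 24.1% and 17.6%. In clone 7E at day 4 the order was the reverse, with 22.6% for H/ACA and 25.4% for C/D. The classes overlapped widely in every group: in clone 5F at day 0 the H/ACA members spanned 3.03% to 79.0% and the C/D members 3.86% to 76.3%. For members with at least 100 counts in mock, the medians in that group were 35.8% and 30.1%. Without the libraries that stand apart, the H/ACA and C/D medians were 31.4% and 19.9%, 26.2% and 20.6%, 21.5% and 16.7%, and 22.9% and 26.7% in the 4 groups. No test was made of the class difference, as members are not replicates.

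**Figure D3:**
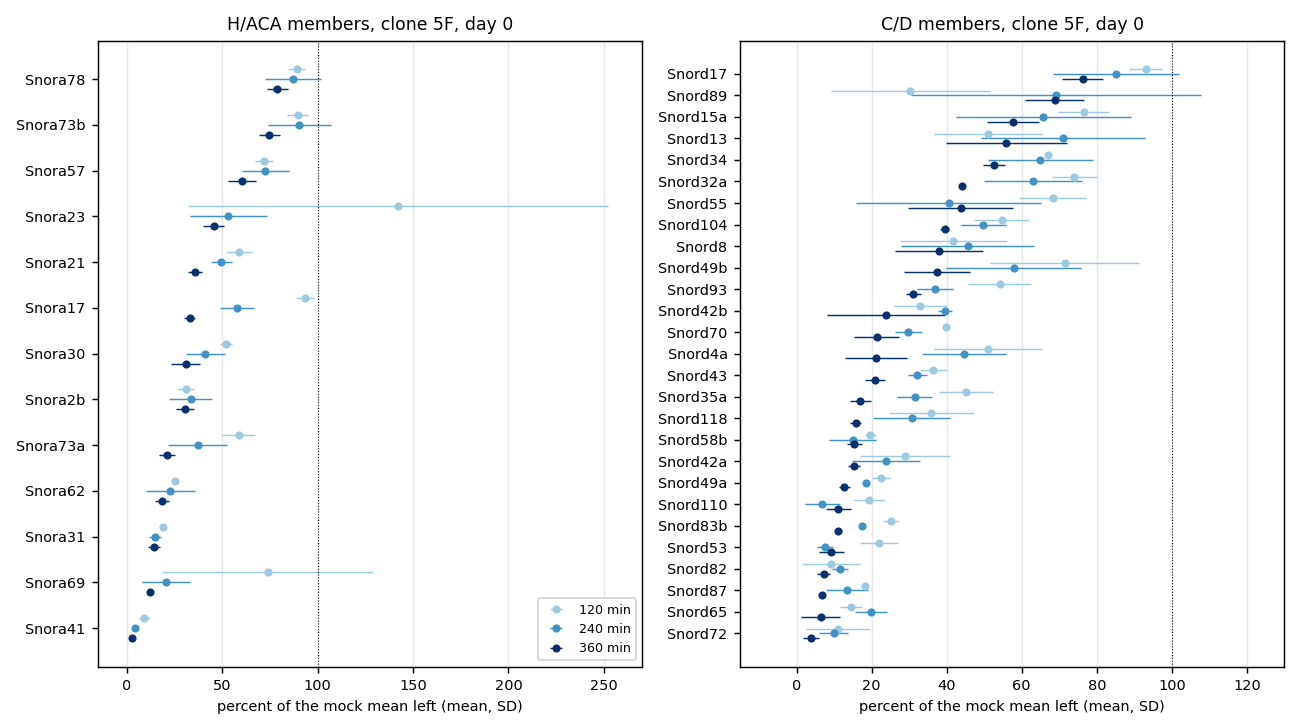
Percent of the mock mean left after 120, 240 and 360 min of actinomycin D in clone 5F at day 0, for each H/ACA and C/D snoRNA, with points for group means, bars for the SD over libraries (n = 2 at 120 min, 3 at 240 and 360 min) and a dotted line at 100%. Members are ordered by the value at 360 min, from Snora78 (79.0%) to Snora41 (3.03%) in the H/ACA class and from Snord17 (76.3%) to Snord72 (3.86%) in the C/D class.

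Members of the same host gene allow a comparison in which scaling between libraries enters only through an added pseudocount, because the ratio of 2 members is taken within a library. Not all of them are purely intronic, as Snora73a and Snord42b overlap an annotated exon of their host. For the 11 pairs that share a host, the change of the log2 ratio from mock to 360 min (pseudocount 0.5) was tested by an exact two-sided permutation of the libraries within the 4 clone and day groups. There were 160000 arrangements, and the smallest p they can give is 1.25e-05. The ratio changed in 8 of 11 pairs at a Benjamini-Hochberg adjusted p under 0.05 over the 11 pairs. This comparison was added after the data had been seen.

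The Rpl13a snoRNAs, which are known as mediators of lipid-induced stress besides their role as methylation guides, showed this clearly. In clone 5F at day 0, Snord34 measured 485, 542 and 459 normalized counts in mock and 245, 264 and 273 at 360 min, or 52.6% ± 2.90 of mock. Snord35a measured 100.3, 122 and 99.8 in mock and 15.5, 21.6 and 17.7 at 360 min, or 17.0% ± 2.87. Snord32a lay between them with 44.0% ± 0.774. The log2 ratio of Snord34 to Snord35a rose by 1.89 (SD 0.26 over the 4 groups), that of Snord32a to Snord35a by 1.24 (SD 0.08) and that of Snord34 to Snord32a by 0.65 (SD 0.30), each with a permutation p of 1.25e-05 (adjusted 1.96e-05). Mock and 360 min ratios did not overlap in 4 of 4 groups, also without the libraries that stand apart.

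In 2410006H16Rik, a noncoding host, the related Snord49a and Snord49b differed in the share of reads left. Snord49a measured 183, 187 and 143 normalized counts in the clone 5F day 0 mock libraries and 18.9, 23.9 and 22.7 at 360 min. Snord49b measured 57.8, 73.8 and 58.7 in mock and 23.9, 29.3 and 18.1 at 360 min. The more abundant Snord49a was thus reduced to the level of Snord49b, with 12.7% ± 1.51 against 37.5% ± 8.78 left. The log2 ratio of Snord49a to Snord49b changed by -1.74 (SD 0.22 over the 4 groups) and that of Snord49b to Snord65 by 1.88 (SD 0.49), both with a permutation p of 1.25e-05, while the ratio of Snord49a to Snord65 did not pass the test (0.14, SD 0.68, permutation p = 0.577).

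The remaining pairs lie in Rpl3, Snhg3 and Rpl23a. Snord43 rose against Snord83b, its neighbour in Rpl3, by 0.99 (SD 0.26), and Snora73b against Snora73a in Snhg3 by 1.28 (SD 0.41), each with a permutation p of 1.25e-05. Of these, Snord43 is the member typed as a microRNA gene. The Rpl23a snoRNAs overlap exons, Snord4a and Snord42a those of Tlcd1 and Snord42b those of Rpl23a itself. Among them, Snord4a rose against Snord42a by 0.79 (permutation p = 0.000975, adjusted 0.00134). The pairs Snord42a with Snord42b (-0.77, permutation p = 0.0413, adjusted 0.0505) and Snord4a with Snord42b (0.03, permutation p = 0.932) did not pass. The slope of a member had little relation to that of its host: over the 35 members, Spearman's rho was 0.154, 0.148, 0.0859 and 0.177 in the 4 groups, and 21, 23, 26 and 25 members were steeper than their host.

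**Figure D4:**
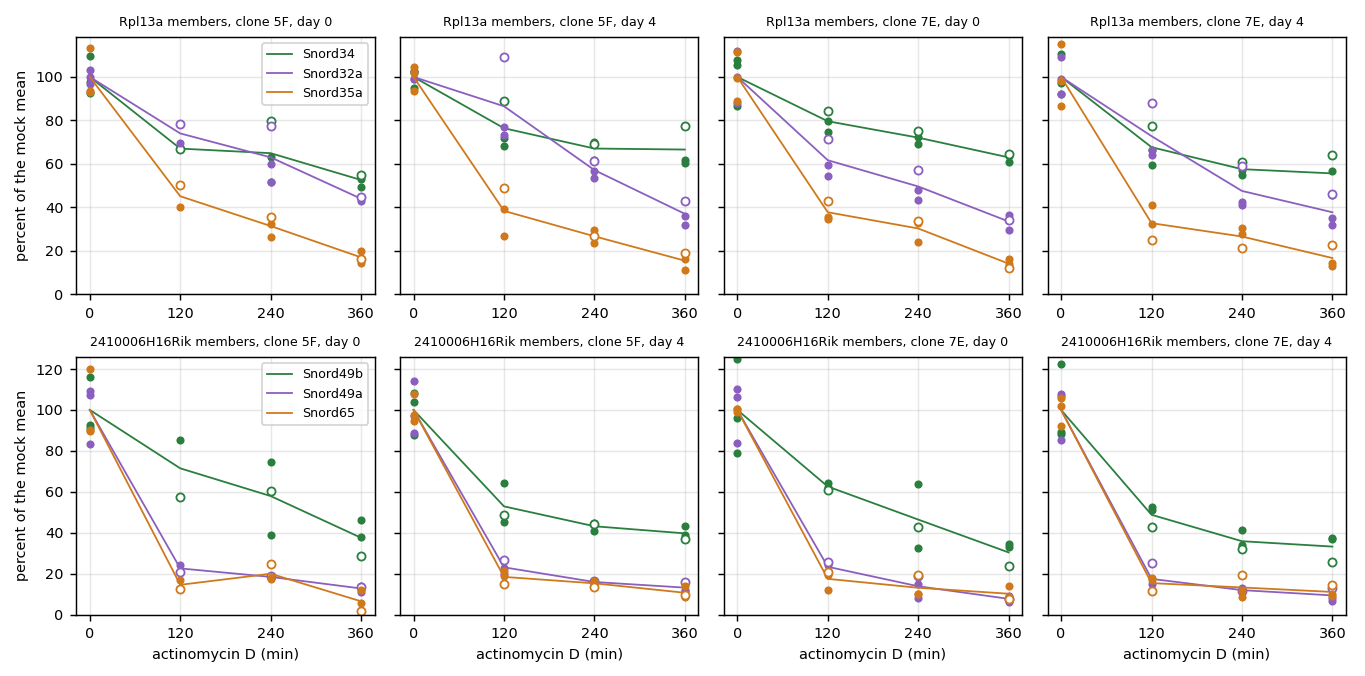
Percent of the mock mean left against minutes of actinomycin D for 3 snoRNAs of Rpl13a and 3 of 2410006H16Rik in each clone and day, with a point for each library, open for those that stand apart, and lines through group means. Snord35a lies below Snord34 and Snord32a at each time after mock, and Snord49b lies above Snord49a and Snord65, with means of 37.5%, 12.7% and 6.46% at 360 min in clone 5F at day 0.

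To ask whether 4OHT changed snoRNA decay, the slopes of the libraries labelled day 4 and day 0 were compared within each clone. By edgeR's quasi-likelihood test no snoRNA passed in clone 5F, where 0.192% of all genes did, and none in clone 7E, where 0.906% did. At an unadjusted p under 0.05 there were 3 members in either clone. Likewise 0 of 40 differed in slope between the clones at day 0 (0.0398% of all genes, 9 members at an unadjusted p under 0.05), and 0 of 40 in the difference of the 4OHT change between the clones (0% of all genes, 3 members at an unadjusted p under 0.05). These shares of all genes are at the adjusted threshold. Shares at an unadjusted p are not given, so the unadjusted counts of members have no background. DESeq2 called 1 member, Snord17, in the last comparison and 0 in the others. Between the clones at day 0 the slope was steeper in clone 7E for 33 of 40 members (median difference -0.07 log2 per h, beside 0.00 for all genes). With the mock and 360 min libraries only, 5 of them passed, all steeper in clone 7E, Snora23 (-0.22), Snora62 (-0.17), Snord17 (-0.13), Snord104 (-0.13) and Snora73b (-0.12). The share of all genes passing with these libraries is not given here, so the 5 are not set against a background.

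Snord17 was nearest to the threshold. Its slope was -0.06 ± 0.03 log2 per h (SE) in clone 5F at day 0 and -0.21 ± 0.03 in the libraries labelled day 4, a difference of -0.15 ± 0.04 (edgeR adjusted p = 0.241). In clone 7E the slopes were -0.19 ± 0.02 and -0.11 ± 0.02, and the difference of the 2 changes was 0.23 ± 0.05 (edgeR adjusted p = 0.274). Without the 12 libraries that stand apart, Snord17 passed in clone 5F (-0.14, edgeR adjusted p = 0.00399), between the clones at day 0 (-0.12, adjusted p = 0.0412) and in the difference of the changes (0.20, adjusted p = 0.00224). With all libraries kept, Snord17 also passed with own spike-ins (adjusted p = 0.0292 in clone 5F and 0.00253 for the difference of the changes) and with the mock and 360 min libraries only (0.0110 and 0.00720). The call for Snord17 thus depends on the processing. Snora73b had the lowest adjusted p between the clones at day 0 (0.165).

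The level before actinomycin D was then compared among the 12 mock libraries. In clone 5F, 4 snoRNAs were higher (12.8% of all genes were) and 5 were lower (11.6% of all genes) in the libraries labelled day 4, so the share of members past the test, edgeR's quasi-likelihood test at an adjusted p under 0.05, was near the background. The higher ones were Snord49b (log2 change 0.59 ± 0.16 SE, adjusted p = 0.00877), Snora73b (0.25), Snord32a (0.25) and Snord17 (0.22). The lower ones were Snord13 (-0.66 ± 0.17, adjusted p = 0.00664), Snord118 (-0.59), Snora23 (-0.52), Snora41 (-0.48) and Snord15a (-0.25). The median over the 40 was -0.01, beside 0.00 for all genes. Calls were fewer without replicate 1 (5) and without replicate 3 (3).

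In clone 7E, 1 snoRNA was higher with 4OHT (20.7% of all genes were) and 14 were lower (19.4% of all genes). Snora23, a pseudouridylation guide in an intron of the importin gene Ipo7, fell most: it measured 396, 399 and 225 normalized counts at day 0 and 107, 123 and 75.03 at day 4. The groups did not overlap, and the log2 change was -1.75 ± 0.18 (SE, edgeR adjusted p = 2.87e-08). Snord13 fell from 382, 349.6 and 269 to 141, 111 and 145 (-1.33 ± 0.13, adjusted p = 1.22e-08), and Snora41 from 358, 337 and 286 to 128, 194 and 102 (-1.22 ± 0.15, adjusted p = 5.09e-07). Snord89 also fell (-1.23 ± 0.36, adjusted p = 0.00851) but from only 15, 21 and 19 reads to 9, 7 and 7. The hosts of Snora23 and Snora41 did not pass the test (Ipo7 0.01 ± 0.05, Eef1b2 0.08 ± 0.04), and Snord13 has no annotated host.

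The remaining decreases in clone 7E were Snord42a (-0.78), Snora2b (-0.76), Snord15a (-0.66), Snord118 (-0.64), Snora62 (-0.48), Snord17 (-0.39), Snora21 (-0.35), Snora57 (-0.28), Snora73b (-0.25) and Snord34 (-0.24). Snord32a was the member that rose, from 500.1, 560.3 and 441 to 622, 686 and 578 normalized counts (0.33 ± 0.09, edgeR adjusted p = 0.0039). Of 13 H/ACA members 7 fell and 0 rose, and of 27 C/D members 7 fell and 1 rose. The median over the 40 was -0.25, beside -0.01 for all genes. Of the cell type markers, 7 of 8 mESC markers fell and 3 of 3 fibroblast markers tested rose with 4OHT in clone 7E (summed level 2.18 to 5.67 CPM), and their part was not tested. With replicate 1 or replicate 2 left out, 9 members passed in place of 15. Scaling matters here: the ratio of mRNA to ERCC counts was 299.6 ± 5.4 at day 0 and 144 ± 1.23 at day 4 in clone 7E mock cells, and with each library's own spike-ins the median of all genes moved to -1.11 and 39 of 40 members fell, Snord32a (-0.77) among them, as did 90.5% of all genes. In these bulk samples fewer cells and less RNA per cell cannot be told apart. On that scale Snora23 (-2.85) and Snord13 (-2.42) remained the lowest members.

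The 2 clones shared 8 of these members. Snora23, Snora41, Snord13, Snord118 and Snord15a fell and Snord32a rose in both, whereas Snora73b and Snord17 rose in clone 5F and fell in clone 7E. The share of all genes that passed in both clones is not given here, so this overlap is not set against a background. For Snora73b and Snord17 the calls depended on the setting. In clone 5F neither of these 2 members passed with own spike-ins or without replicate 3, and Snord17 also not without replicate 2, while in clone 7E Snora73b did not pass with DESeq2 or without replicate 1 or 2. The 2 comparisons have no libraries in common. The difference of the 4OHT response between the clones was tested over all 12 mock libraries and was lower in clone 7E for 5 snoRNAs (5.29% of all genes were), Snord89 (-1.61 ± 0.53), Snora23 (-1.23 ± 0.28), Snora41 (-0.74 ± 0.22), Snord17 (-0.61 ± 0.11) and Snora73b (-0.50 ± 0.11). It was higher for 0 snoRNAs (6.64% of all genes were). Snord17 and Snora73b passed with each replicate number left out, Snora23 and Snora41 did not pass without replicate 1, and Snord89 passed with none of the replicate numbers left out and not with DESeq2. For Snord17 the mock values were 4029, 3984 and 4101 in clone 5F at day 0 and 4071, 5179.5 and 4871 at day 4, and 5069, 4709 and 3881 in clone 7E at day 0 and 3318, 3761 and 3337 at day 4. The clone 7E groups did not overlap, and those of clone 5F did.

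At day 0, 12 snoRNAs were higher in clone 7E than in clone 5F mock cells (18.1% of all genes were) and 0 were lower (18.1% of all genes). Snord87, in an intron of Snhg6, measured 158, 152 and 168 normalized counts in clone 7E and 101, 92.8 and 91.6 in clone 5F (log2 difference 0.74 ± 0.12 SE, edgeR adjusted p = 4.8e-05), and its host Snhg6 was also higher (0.92 ± 0.06). Snord104 measured 298, 299 and 263 against 201, 196 and 208 (0.51 ± 0.09). Neither pair of groups overlapped. The others were Snord89 (0.94), Snord13 (0.67), Snora41 (0.66), Snora23 (0.55), Snord65 (0.49), Snora21 (0.47), Snora73b (0.44), Snora31 (0.31), Snora57 (0.31) and Snord32a (0.25). This comparison shares its day 0 libraries with the 4OHT comparisons above. With each library's own spike-ins 6 members were higher and 4 (Snord34, Snord70, Snord72 and Snord93) were lower, on a scale where 9.19% of all genes were higher and 36.7% lower. With replicate 1 or replicate 2 left out 7 members passed. Without replicate 3, 10 members were higher and 1 was lower.

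**Figure D5:**
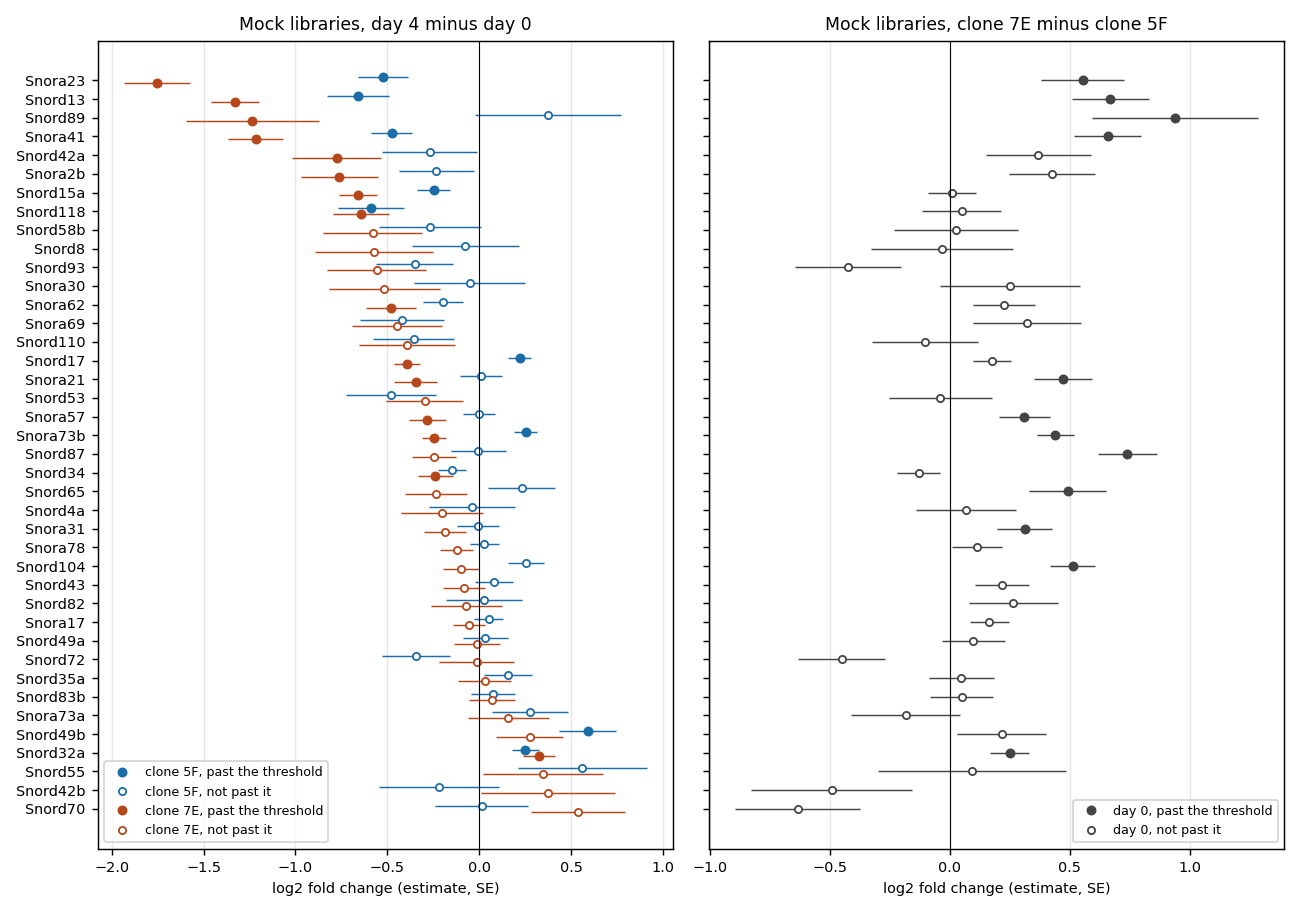
Log2 fold change of each of the 40 snoRNAs in mock libraries, with SE bars and filled points for members past the adjusted p of 0.05: at left day 4 minus day 0 in clone 5F (blue) and clone 7E (orange), at right clone 7E minus clone 5F at day 0. Snora23 (-1.75) and Snord13 (-1.33) lie lowest in clone 7E, and all 12 filled points at right lie above 0.

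The snoRNA machinery was taken as lists, to be read against the 12.8% of all genes that rose and 11.6% that fell with 4OHT in clone 5F, and 20.7% and 19.4% in clone 7E. Of the C/D core genes Fbl, Nop56, Nop58 and Snu13, 2 rose and 1 fell with 4OHT in clone 5F, and 2 rose in clone 7E. Nop56, itself the host of Snord110, rose by 0.65 ± 0.04 and 0.30 ± 0.04 on the log2 scale, and Snu13 fell in clone 5F (-0.24). Of the H/ACA core genes Dkc1, Nhp2, Nop10 and Gar1, Gar1 rose (0.23) and Nop10 fell (-0.35) in clone 5F, and Nop10 (-0.43) and Dkc1 (-0.16) fell in clone 7E. Of 9 assembly factors 0 rose and 2 fell in clone 5F, and 2 rose and 2 fell in clone 7E. Of 9 end-processing and turnover genes 1 rose and 2 fell in either clone. Exosc10, the nuclear exosome nuclease, rose (0.18 and 0.26) and Zfc3h1 fell (-0.36 and -0.46). The paper names ZFC3H1 in a nuclear interaction with MTR4 and PABPN1. Of 4 modification and transport genes 0 passed in clone 5F and 2 fell in clone 7E. On the scale of own spike-ins, Nop56 (-0.80) and Exosc10 (-0.84) were lower in clone 7E, like the median gene. Between the clones at day 0, the lists gave 1 higher and 0 lower (C/D core), 1 and 3 (H/ACA core), 2 and 3 (assembly), 4 and 0 (end processing) and 0 and 1 (modification and transport) in clone 7E, where 18.1% of all genes were higher and 18.1% lower.

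Of the 27 host genes, read against the same shares of all genes, 7 rose and 2 fell with 4OHT in clone 5F and 6 rose and 4 fell in clone 7E (3 higher and 3 lower between the clones), led by Rpl3 (1.14 ± 0.06 and 0.80 ± 0.05), whose snoRNAs Snord43 and Snord83b did not pass. Small Cajal body RNAs, relatives that guide the modification of spliceosomal RNAs, gave 6 genes with enough counts of 9. Scarna6 fell in clone 7E (-0.54 ± 0.08) and not in clone 5F (-0.03 ± 0.09, difference -0.50 ± 0.15, edgeR adjusted p = 0.0342), and the others did not pass in the mock 4OHT comparisons.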

How the data were processed

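Per the study's methods, total RNA was depleted of ribosomal RNA, sequenced as single reads of 50 nt (the labels name a TruSeq v2 kit, and the strand setting of the gene counts is not given in the sources used here), and aligned with STAR to GRCm38 with ERCC sequences. The authors kept uniquely mapped reads and deposited raw counts per gene (Gencode M16), so snoRNAs with near copies lose reads. Gene names, hosts and coordinates came from Gencode M21, which named 53274 of 53380 genes. The members and lists were chosen with earlier results of these data known. DESeq2 size factors were taken among the libraries of 1 time point, and scaled counts were then multiplied by the spike-in factor of that time, from 34 ERCC sequences with a mean above 50 counts (the paper writes of a division). edgeR 4.0.16 (R 4.3.3) quasi-likelihood tests used all genes past filterByExpr, with slopes on time in hours and Benjamini-Hochberg adjustment over those genes at 0.05. The tests were tested on simulated data. Host pairs were tested by exact permutation (scipy 1.17.1). Named members are the 5 highest per class, up to 3 per direction and test, the 3 slowest and 3 fastest per class, and the members of called sets. The alternatives were own spike-ins per library, TMM, DESeq2 1.42.0, limma 3.58.1, no filter, fewer time points, a replicate block and each replicate number left out. The labels give actinomycin D as 5 µg/µl and the paper as 5 µM. Other experiments of the series were not used here, and 0 columns of the count table were left unused.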

Additional observations from a re-analysis of the deposited data

Results flagged for a closer look

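The mock response to 4OHT differed between the clones for 5 snoRNAs by the interaction term over the 12 mock libraries (edgeR quasi-likelihood test, adjusted over all genes). For all 5 the response was lower in clone 7E, beside 5.29% of all genes lower and 6.64% higher. The difference, clone 7E minus clone 5F on the log2 scale, was -1.61 ± 0.53 (SE, adjusted p = 0.0489) for Snord89, which rests on 6 to 21 reads per library, and -1.23 ± 0.28 (adjusted p = 0.00438) for Snora23. It was -0.74 ± 0.22 (adjusted p = 0.0272) for Snora41, -0.61 ± 0.11 (adjusted p = 0.000603) for Snord17 and -0.50 ± 0.11 (adjusted p = 0.00309) for Snora73b. With each replicate number left out, the difference ranged from -2.07 to -1.16 for Snord89, from -1.44 to -1.07 for Snora23, from -0.94 to -0.62 for Snora41, from -0.67 to -0.57 for Snord17 and from -0.55 to -0.45 for Snora73b. The call for Snord89 was lost with each replicate number left out, with DESeq2 and with no filter on low counts, and the calls for Snora23 and Snora41 were lost without replicate 1. Snord17 and Snora73b passed under each of these alternatives. By the main scaling they rose in clone 5F and fell in clone 7E, while Snora23 and Snora41 fell in both.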

How the results depend on the processing

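Slope calls changed with TMM scaling and no spike-in factor, from 39, 40, 40 and 40 members to 25, 20, 24 and 26 (clone 5F day 0 and day 4, clone 7E day 0 and day 4), which follows from the missing fall of total mRNA on that scale. Tests of a change in decay called 0 members and then 1 in clone 5F (own spike-ins, mock and 360 min libraries only, without the 12 libraries that stand apart, or with a term for them). They called 1 in clone 7E (mock and 360 min only), 5 (mock and 360 min only) or 1 (without the 12 libraries) between clones, and 1 in the clone difference (own spike-ins, DESeq2, mock and 360 min only, without the 12 libraries, or a term for them). The single member was Snord17 each time. Shares of all genes with the mock and 360 min libraries only are not given here. Own spike-ins raised the mock calls in clone 7E from 15 to 39 and in the clone difference of the mock response from 5 to 38. On that scale 90.5% of all genes were lower in clone 7E, and 83.9% were lower in the clone difference. With a replicate number left out, calls ranged from 3 to 8 in clone 5F mock (9 with all), 9 to 15 in clone 7E, 7 to 11 between clones and 2 to 4 in the clone difference; the cause was not tested. The median left at 360 min in clone 5F day 0 was 69.7% for H/ACA and 47.5% for C/D by CPM with no spike-in factor, 35.8% and 30.1% with at least 100 mock counts, and 18.0% to 20.3% for C/D with a replicate left out. Same-numbered libraries of different clone and day groups had correlations of -0.368 to 0.371 in mock and medians of 0.367, 0.239 and 0.249 at 120, 240 and 360 min (differently numbered: -0.288, -0.238 and -0.199), where the libraries that stand apart share a number. Not every pair was over 0.1, so the numbers were not taken to pair samples. A replicate block gave 8 calls in place of 9 in clone 5F mock (Snord15a lost), exchanged Snord89 (adjusted p = 0.0609) for Snord15a (0.0369) among the 5 in the clone difference of the mock response, and left the same members called in the other comparisons. Host pairs passing were 7 to 9 of 11 under all 5 alternatives. Low counts limit Snord89 and Snord42b, and near copies limit Snora73a.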
